A study of Mus musculus with 13 samples.

Results

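The transporters described here sit on the sinusoidal (basolateral) side of hepatocytes and move bile acids and other organic anions between blood and cell. They are 10 genes chosen by name, of 22247 genes in a joined table of all mice, with 6 genes for uptake (Slc10a1, Slco1a1, Slco1a4, Slco1b2, Slco2b1 and Slc22a7) and 4 for efflux (Slc51a, Slc51b, Abcc3 and Abcc4). Whole-liver RNA was sequenced from 13 male C57 mice of 3 months with wild-type Gnmt. Of these, 5 had neither bile duct ligation (BDL) nor treatment (no BDL). A control oligonucleotide was given by tail vein to 4 ligated mice (miR-Ctrl BDL). A further 4 ligated mice were given a hairpin inhibitor of the microRNA, anti-miR-873-5p, by the same route (anti-miR-873-5p BDL). Both were dosed at 60 µg per mouse, on days 3 and 5 after BDL, with removal of the livers on day 7. The no BDL mice had no sham operation named in the labels and no oligonucleotide, so surgery, ligation and oligonucleotide cannot be told apart in the comparisons with no BDL. Mice of different groups that carry the same number are different animals.

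Bile acids that return from the gut in portal blood are taken up across the basolateral membrane, mainly by the sodium-dependent carrier NTCP and by organic anion transporting polypeptides, and are then secreted into the canaliculus. When the outflow of bile is blocked, basolateral exporters offer a route back into blood and from there to urine. The bile acid receptor FXR and the SHP protein are known regulators of several of these genes.

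Counts on genes ran from 12185333 to 19689037 per mouse over the 3 deposited tables, 1 per comparison. The table of both BDL groups holds 3 mice per group and lacks mouse 3 of miR-Ctrl BDL and mouse 2 of anti-miR-873-5p BDL, called the omitted mice here, whereas the other tables hold them. Since the tables differ in these mice, some results are given both with and without them. Values per mouse are normalized counts, that is edgeR's cpm on TMM-scaled libraries of the joined table, and tests are those of each deposited table. The scaling factors were 0.62 to 0.86 in no BDL and 1.08 to 1.45 in the mice with BDL, so the scaling bears on each difference between them. The liver identity of the samples was clear from hepatocyte markers, whose summed level over 7 genes was 95259 to 112437 normalized counts in no BDL.

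The microRNA that the inhibitor was made against is shown first, because the only copy of its seed match in a 3′UTR of these genes lies in Abcc4. The mature miR-873a-5p (RefSeq, GRCm38.p6, chr4:36668556-36668576, minus strand) and the site at base 209 of the 1641-base Abcc4 3′UTR of GENCODE M21 are given 5′ to 3′, with the seed (bases 2 to 8) and its match in capitals.
mmu-miR-873a-5p: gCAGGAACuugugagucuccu
Abcc4 3′UTR site: tttattttaaaaGTTCCTGctgttctttac
The match GTTCCTG was searched in the 3′UTRs of all 10 transporters on the transcript strand, and 14.9% of 21022 genes with a 3′UTR hold it. A match of letters is a description and says nothing of whether the site is used.

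In livers without BDL, uptake genes dominated. Slc10a1, which encodes NTCP, had the highest level per kilobase of exon (335 ± 96.6 normalized counts per kilobase, SD, n = 5) and was above the next gene, Slco1b2, in 5 of 5 mice. Slco1b2, the liver organic anion transporter OATP1B2, stood at 192 ± 41.7 and Slco1a1, the male-predominant OATP1A1, at 85.3 ± 24.3, each above the next gene in 5 of 5 mice. Slco2b1 (35.2), the efflux pump gene Abcc3 (34.5) and Slc22a7 (34.2) did not differ in order beyond their spread, since Slco2b1 exceeded Abcc3 in 3 of 5 mice and Abcc3 exceeded Slc22a7 in 2 of 5. Slco1a4 followed at 6.46 per kilobase, and Slc51b (0.584) and Abcc4 (0.360) were near the bottom. The exon lengths come from GENCODE M21 and not from the annotation used for the counts.

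After BDL with miR-Ctrl, 5 of the 6 uptake genes fell and 2 of the 3 efflux genes that passed the filter on low counts rose. Uptake genes fell from 1.99-fold (Slco2b1) to 98.0-fold (Slco1a1) in their group means, while Slc51b, the β subunit of the organic solute transporter, rose 21.4-fold and Abcc4, the exporter MRP4, rose 1.80-fold. Slco1a4 and Abcc3 did not pass the test, and Slc51a was not tested. All 7 genes called differed without overlap between groups. Over all 13072 genes tested, 19.1% were called higher and 16.6% lower, and 14.8% lay higher without overlap and 14.8% lower. Calls were made at an adjusted p of 0.05 with the quasi-likelihood test of edgeR. In whole liver, fewer hepatocytes and less RNA per hepatocyte cannot be told apart.

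Slc10a1, the sodium-dependent bile acid carrier NTCP, was at 775, 640, 952, 897 and 424 normalized counts in no BDL mice 1 to 5. It was at 83.4, 88.7, 208 and 117 in miR-Ctrl BDL mice 1 to 4, and at 205, 338, 146 and 125 in anti-miR-873-5p BDL mice 1 to 4. Every mouse with BDL was below every mouse without, and the highest mouse of each BDL group was the omitted one. The log2 fold change in edgeR was -2.56 ± 0.34 (SE, adjusted p = 0.000573) with miR-Ctrl and -1.84 ± 0.34 (adjusted p = 0.00607) with anti-miR-873-5p, each against no BDL. Without the 2 omitted mice it was -2.93 and -2.19. Its counts differ by 0.102 to 0.288% in the miR-Ctrl mice and 0.651 to 1.293% in the no BDL mice between deposited tables.

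Slco1a1, a carrier of organic anions and conjugated bile acids, lost most of its RNA. It was at 431, 638, 399, 492 and 290 normalized counts in no BDL mice 1 to 5. In the mice with BDL it was at 10.2, 3.81, 1.50 and 2.82 with miR-Ctrl and at 33.3, 4.86, 11.1 and 16.6 with anti-miR-873-5p. The lowest no BDL mouse was thus far above the highest BDL mouse, and the mice with miR-Ctrl and with anti-miR-873-5p overlapped when all 8 were taken. The log2 fold change in edgeR was -6.57 ± 0.59 (adjusted p = 0.000121) with miR-Ctrl and -4.74 ± 0.55 (adjusted p = 0.00114) with anti-miR-873-5p, lower than in all but 0.168% of genes in both comparisons.

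Slco1b2 encodes the closest mouse counterpart of the human hepatic OATP1B carriers. It was at 918, 1221, 907, 1039 and 659 normalized counts in no BDL, at 280, 283, 198 and 310 in miR-Ctrl BDL and at 531, 140, 297 and 374 in anti-miR-873-5p BDL. No mouse with BDL reached the lowest mouse without it, and anti-miR-873-5p mouse 2 was the lowest of all 13. Its log2 fold change in edgeR was -1.80 ± 0.21 (adjusted p = 0.000375) with miR-Ctrl and -1.47 ± 0.36 (adjusted p = 0.0190) with anti-miR-873-5p. The second call was lost without anti-miR-873-5p mouse 3 (-1.42, adjusted p = 0.0632), which leaves mouse 2 in the group, and by library size alone (-0.62, adjusted p = 0.129).

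Slco2b1, a broadly expressed organic anion carrier, was at 228, 208, 242, 212 and 158 normalized counts in no BDL. It was at 116, 90.4, 90.4 and 125 with miR-Ctrl and at 143, 100.2, 114 and 107 with anti-miR-873-5p. Its groups did not overlap with no BDL, but the fall was the smallest of the uptake genes called. The edgeR log2 fold changes were -0.96 ± 0.16 (adjusted p = 0.00165) and -0.82 ± 0.16 (adjusted p = 0.00869). Scaling by library size alone, which moved the median of all genes to 0.79 with miR-Ctrl and to 0.82 with anti-miR-873-5p, gave -0.17 and -0.012, both not past the threshold. Beside leaving out each mouse, the Slco2b1 call was lost in 1 of 9 alternatives with miR-Ctrl and in 2 of 9 with anti-miR-873-5p. Exons of antisense genes cover 9.2% of its exon bases and the library kit did not keep strand.

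Slc22a7, the organic anion transporter OAT2, was at 74.4, 136, 37.8, 77.6 and 33.7 normalized counts in no BDL, at 20.4, 18.1, 10.9 and 26.9 with miR-Ctrl and at 47.6, 4.17, 20.2 and 30.7 with anti-miR-873-5p. The miR-Ctrl mice all lay below the no BDL mice, while anti-miR-873-5p mouse 1 lay among them. The edgeR log2 fold change was -1.88 ± 0.43 (adjusted p = 0.00791) with miR-Ctrl and -1.45 ± 0.62 (adjusted p = 0.119) with anti-miR-873-5p, where DESeq2 gave an adjusted p of 0.0499.

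Slco1a4 encodes OATP1A4 and lies beside Slco1a1 and Slco1b2 on chromosome 6. It was at 34.7, 41.5, 69.3, 49.3 and 12.2 normalized counts in no BDL, at 39.7, 33.1, 26.2 and 31.2 with miR-Ctrl and at 30.7, 74.9, 31.4 and 38.9 with anti-miR-873-5p. Here all groups overlapped, and anti-miR-873-5p mouse 2 was the highest of all mice. The log2 fold change was -0.32 (95% interval -1.17 to 0.53) with miR-Ctrl and 0.10 (-0.85 to 1.05) with anti-miR-873-5p, with adjusted p of 0.552 and 0.886 in edgeR. Its sign depended on the scaling with miR-Ctrl. With anti-miR-873-5p it depended on the mice kept, at -0.27 without mouse 2 of that group, and on adding mouse number to the fit. Of the 50-base windows of its transcripts 1.61% recur in other genes, and for Slco1a1 the share is 1.64%. Reads there could have been counted for another gene. For both, the most window matches were to Slco1a5 (410 for Slco1a4 and 328 for Slco1a1).

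**Figure D1:**
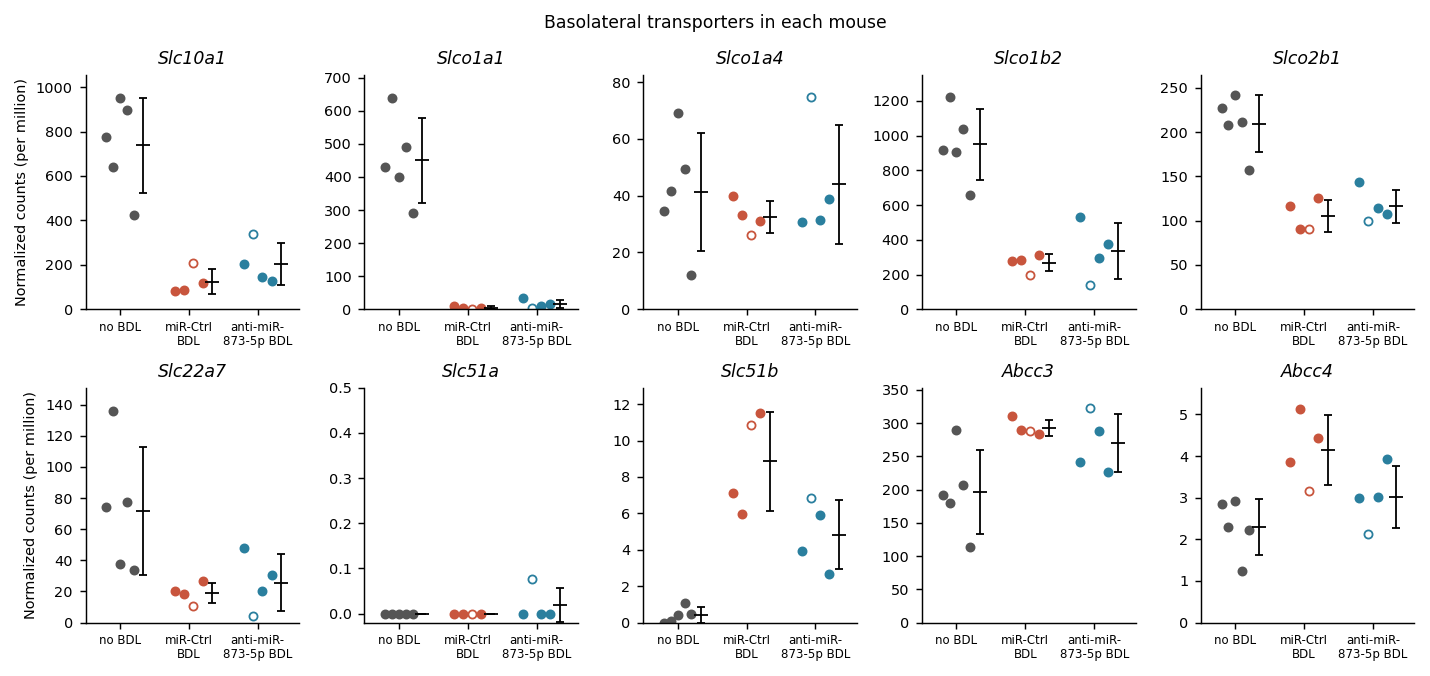
Normalized counts (edgeR's cpm, linear axes from 0 except for Slc51a) of each transporter in each mouse, with mean and SD to the right of each group. Open points mark the 2 omitted mice, and Slco1a1 sits between 290 and 638 in no BDL and at or below 33.3 in every mouse with BDL.

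Among the efflux genes, Slc51a, the α subunit of the organic solute transporter, had 0 counts in every mouse except for 1 read in anti-miR-873-5p mouse 2. A count of 0 allows up to 3 counts in a library, that is 0.148 to 0.286 normalized counts depending on the mouse, for counting error only. Exons of Pcyt1a on the other strand overlap 17.7% of its exon bases. Its partner Slc51b was at 0, 0.095, 0.43, 1.07 and 0.48 normalized counts in no BDL mice 1 to 5, from 0 to 13 reads. It was at 7.11, 5.96, 10.8 and 11.5 with miR-Ctrl and at 3.94, 6.83, 5.91 and 2.65 with anti-miR-873-5p, on 54 to 192 reads. All mice with BDL were above all mice without. The edgeR log2 fold change was 4.37 ± 0.56 (adjusted p = 0.000539) with miR-Ctrl and 3.50 ± 0.61 (adjusted p = 0.00526) with anti-miR-873-5p. Exons of Rasl12, on the other strand, overlap 12.8% of the Slc51b exon bases.

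Abcc3, which encodes the exporter MRP3, was at 193, 180, 289, 207 and 114 normalized counts in no BDL. It was at 311, 289, 288 and 284 with miR-Ctrl and at 242, 322, 288 and 227 with anti-miR-873-5p. The miR-Ctrl mice lay close together, and no BDL mouse 3 reached their level. The edgeR log2 fold change was 0.60 ± 0.22 (adjusted p = 0.0541) with miR-Ctrl and 0.48 ± 0.24 (adjusted p = 0.170) with anti-miR-873-5p. The first passed the threshold without no BDL mouse 3 (adjusted p = 0.0148) or mouse 5 (adjusted p = 0.0476) and under DESeq2 (adjusted p = 0.0240), and both passed by library size alone (adjusted p = 0.00156 and 0.00255).

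Abcc4, which encodes MRP4, was low throughout, at 2.85, 2.29, 2.92, 1.23 and 2.22 normalized counts in no BDL on 15 to 34 reads. It was at 3.85, 5.12, 3.17 and 4.44 with miR-Ctrl and at 3.00, 2.12, 3.02 and 3.93 with anti-miR-873-5p. The miR-Ctrl mice lay above the no BDL mice by a narrow margin, and the anti-miR-873-5p mice overlapped with them. The edgeR log2 fold change was 0.88 ± 0.26 (adjusted p = 0.0246) with miR-Ctrl and 0.43 ± 0.28 (adjusted p = 0.304) with anti-miR-873-5p. The first call was lost without miR-Ctrl mouse 2 (adjusted p = 0.0751) or mouse 4 (adjusted p = 0.0604), and the second passed by library size alone (1.26, adjusted p = 0.00642).

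With anti-miR-873-5p against no BDL, 4 uptake genes were lower (Slc10a1, Slco1a1, Slco1b2 and Slco2b1) and 1 efflux gene, Slc51b, was higher, of 9 tested. The same 4 and 1 genes also did not overlap. Over all 13130 genes, 13.1% were called higher and 8.44% lower, while 10.1% lay higher and 8.23% lower without overlap. Both comparisons use the same 5 no BDL mice, so their similarity is in part shared. That Slc22a7 and Abcc4 were called with miR-Ctrl only does not show a difference between the BDL groups, which is tested next.

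**Figure D2:**
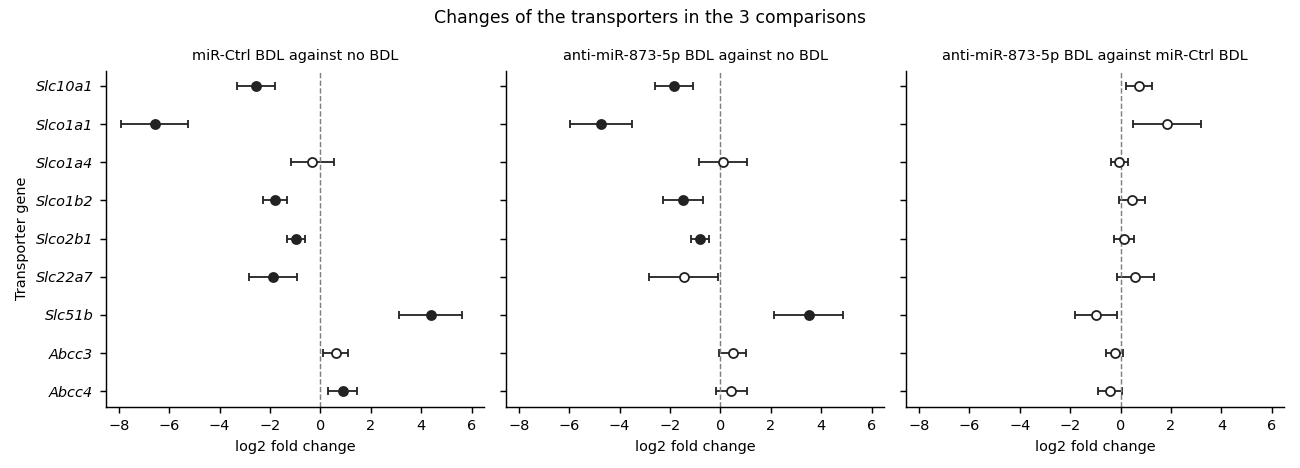
Log2 fold change of the 9 transporters tested (horizontal axis) with its 95% interval in the 3 comparisons, filled where the adjusted p is under 0.05. Uptake genes other than Slco1a4 lie to the left in both comparisons with no BDL, and no point is filled in the comparison of the BDL groups.

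The comparison of anti-miR-873-5p BDL with miR-Ctrl BDL asks whether the inhibitor changed these genes in ligated mice. No transporter passed the test, as 0 of 13746 genes (0%) did in edgeR, where 6.28% had an unadjusted p under 0.05 and DESeq2 called 30 genes. Among the 9 transporters, 3 had an unadjusted p under 0.05 and the same 3 did not overlap between the 3 mice per group, 2 higher (background 6.59%) and 1 lower (4.77%). In the mice of that table, Slc10a1 was at 205, 146 and 125 normalized counts with the inhibitor against 83.4, 88.7 and 117, with a log2 fold change of 0.72 (95% interval 0.20 to 1.24). Slco1a1 was at 33.3, 11.1 and 16.6 against 10.2, 3.81 and 2.82, with 1.85 (0.49 to 3.20). Slc51b was at 3.94, 5.91 and 2.65 against 7.11, 5.96 and 11.5, with -0.98 (-1.82 to -0.15). All 3 had an adjusted p of 0.757 in edgeR, and the gap between groups was narrow for each, since the nearest mice were at 5.91 and 5.96 for Slc51b.

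For the other members tested, the 95% intervals included 0. Slc22a7 had a log2 fold change of 0.59 (95% interval -0.14 to 1.32) and Slco1b2 one of 0.46 (-0.07 to 0.98). Slco2b1 was at 0.13 (-0.27 to 0.54) and Slco1a4 at -0.05 (-0.38 to 0.28). The exporter genes Abcc4 and Abcc3 were at -0.43 (-0.90 to 0.04) and -0.23 (-0.56 to 0.10), Abcc4 being the member with the seed match printed above. With all 4 mice per group the values were 0.72 for Slc10a1, 1.83 for Slco1a1, -0.87 for Slc51b, 0.33 for Slco1b2, 0.43 for Slc22a7 and -0.45 for Abcc4 (adjusted p = 0.980 for each in edgeR), and Slc10a1, Slco1a1 and Slc51b then overlapped between groups. Slco1a4 turned to 0.44 with all mice.

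Within a mouse, the sum of the uptake genes over the sum of the efflux genes, both per kilobase, does not depend on how libraries are scaled. It was 20.4, 23.8, 14.7, 20.9 and 20.3 in no BDL mice 1 to 5. It was 2.03, 2.12, 2.41 and 2.33 in miR-Ctrl BDL mice 1 to 4 and 5.34, 3.21, 2.73 and 3.95 in anti-miR-873-5p BDL mice 1 to 4. The 3 groups were separate, and the lowest mouse with the inhibitor was just above the highest with miR-Ctrl. Part of this gap lies in Slc51b, whose partner Slc51a had almost no reads. Slc51b added a mean of 12.5 normalized counts per kilobase to the efflux sum with miR-Ctrl and 6.82 with anti-miR-873-5p. The ratio was chosen after values of these genes had been seen and is given as a description with no test. The Slc10a1 over Abcc3 ratio was 8.54 to 11.2 in no BDL, 0.696 to 1.87 with miR-Ctrl and 1.31 to 2.72 with anti-miR-873-5p, and there the BDL groups overlapped.

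**Figure D3:**
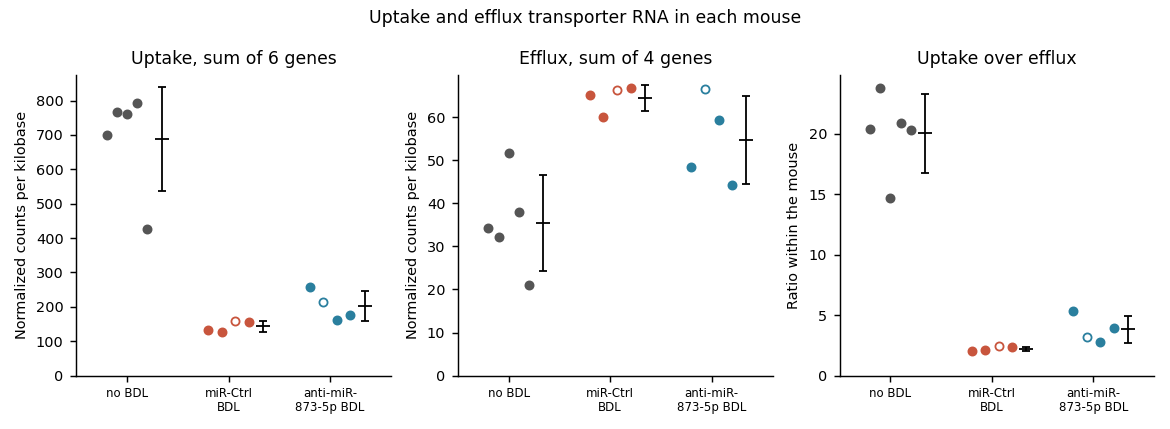
Summed normalized counts per kilobase of the 6 uptake and of the 4 efflux genes, and their ratio, in each mouse, with mean and SD to the right of each group and open points for the 2 omitted mice. The ratio is 14.7 to 23.8 in no BDL, 2.03 to 2.41 with miR-Ctrl and 2.73 to 5.34 with anti-miR-873-5p.

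The make-up of the uptake RNA changed with its amount. Slco1a1 made up 9.93 to 15.8% of the summed uptake level per kilobase in no BDL and 0.178 to 1.47% in miR-Ctrl BDL, with 0.431 to 2.44% in anti-miR-873-5p BDL. Slco2b1 made up 4.49 to 6.21% in no BDL against 9.51 to 14.8% with miR-Ctrl and 7.87 to 11.8% with anti-miR-873-5p. Slc10a1 and Slco1b2 together remained the main part, and in the order of levels Slc10a1 exceeded Slco1b2 in 1 of 4 miR-Ctrl mice and 2 of 4 anti-miR-873-5p mice. The mice in which it did were miR-Ctrl 3 and anti-miR-873-5p 2 and 3. In the 2 omitted mice Slc10a1 made up 59.3% (miR-Ctrl 3) and 72.0% (anti-miR-873-5p 2) of the uptake sum against 28.7 to 40.9% in the other 6 mice with BDL. In miR-Ctrl BDL, Abcc3 came to 51.4 normalized counts per kilobase, beside 56.5 for Slc10a1 and 54.4 for Slco1b2, whereas in no BDL it was one of the middle genes.

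**Figure D4:**
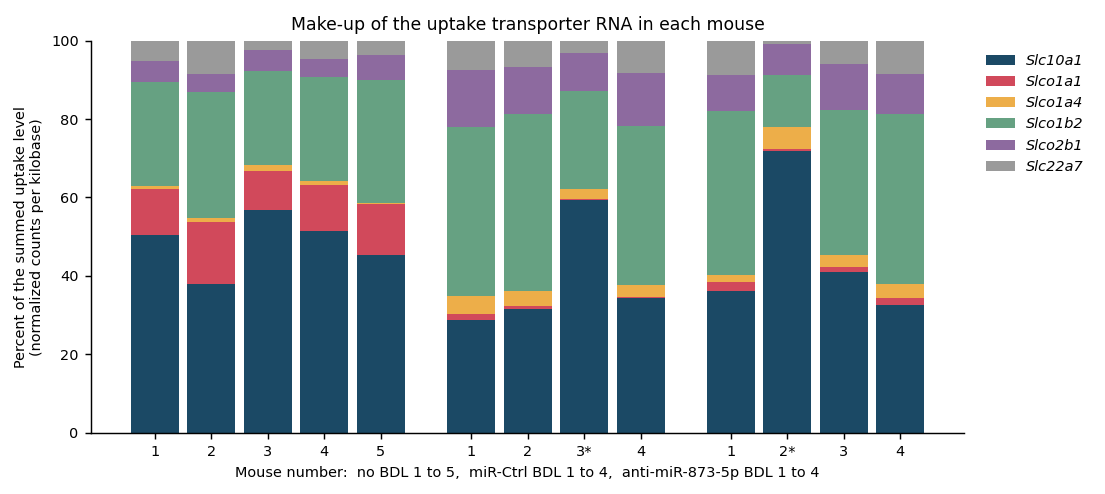
Share of each uptake gene in the summed uptake level (normalized counts per kilobase, in percent) for each mouse, with an asterisk at the 2 omitted mice. Slco1a1 takes 9.93 to 15.8% in no BDL and at most 2.44% with BDL, and Slc10a1 takes 59.3% and 72.0% in the 2 marked mice.

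For 6 of the 10 transporters both omitted mice were at the same end of their group, with the highest Slc10a1 and the lowest Slco1a1, Slco1b2, Slco2b1, Slc22a7 and Abcc4. Over 12884 genes, 25.2% had both mice the highest of their groups and 25.7% both the lowest, so the count for the transporters is near that of genes at large. For Slco1b2 miR-Ctrl mouse 3 was at 198 (others 280 to 310) and anti-miR-873-5p mouse 2 at 140 (others 297 to 531) normalized counts. Slco1a4 went opposite ways, with miR-Ctrl mouse 3 the lowest of its group at 26.2 and anti-miR-873-5p mouse 2 the highest at 74.9. In the same order of mice, stellate cell and fibroblast marker sums were 138 (others 243 to 491) and 77.3 (others 386 to 604) normalized counts, and endothelial sums were 27.5 (others 58.1 to 112) and 39.5 (others 58.0 to 101), both below the others. Red cell and T and natural killer cell sums were also below the others in both mice. Neutrophil sums went opposite ways, at 220.2 (others 24.6 to 71.3) and 19.3 (others 24.0 to 79.1), as did cholangiocyte sums, at 81.3 (others 43.6 to 68.3) and 38.4 (others 42.3 to 96.4). Hepatocyte sums were 48306 (others 43678 to 74156) and 89239 (others 37591 to 57650), and macrophage sums lay within the range of the others. The part of these cells in the transporter values was not tested.

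Genes of other cell types moved with BDL beside the transporters. All 6 cholangiocyte markers tested rose in both comparisons, and their sum ran from 10.9 to 15.0 normalized counts in no BDL, 43.6 to 81.3 with miR-Ctrl and 38.4 to 96.4 with anti-miR-873-5p. Of 8 hepatocyte markers, 5 fell with miR-Ctrl (median log2 fold change -0.83) and 2 with anti-miR-873-5p (median -0.61). The hepatocyte sum of 7 of these genes was 43678 to 74156 with miR-Ctrl and 37591 to 89239 with anti-miR-873-5p. The median of the 6 uptake genes was -1.84 and -1.46 in these comparisons, beside a median of all genes of -0.011 and -0.0070. Macrophage markers rose in 5 of 6 and 2 of 6 cases, neutrophil markers in 4 of 5 and 3 of 4, and stellate cell markers in 3 of 6 in both. Endothelial markers passed in 0 of 5 and 1 of 5 cases, the 1 being lower. Red cell markers were lower in 1 of 3 and 1 of 4 cases. Of the T and natural killer cell markers, 1 was tested with miR-Ctrl and did not pass, and 0 were tested with anti-miR-873-5p. Over all genes, 19.1% were called higher and 16.6% lower with miR-Ctrl, and 13.1% and 8.44% with anti-miR-873-5p. The part of these cell types in the transporter values was not tested.

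Of 30 other genes of the same families, 21 were tested. With miR-Ctrl 9 fell (16.6% of all genes did) and 4 rose (19.1% of all genes), with a median of -0.37. With anti-miR-873-5p 7 fell (8.44% of all genes) and 4 rose (13.1%), with a median of -0.18. The 4 rises of 21 with miR-Ctrl are at the share of all genes. Slco1a6 and Slco1a5, neighbours of Slco1a1 that share windows with it, fell, with log2 fold changes of -3.72 and -3.62 with miR-Ctrl and of -3.20 and -3.39 with anti-miR-873-5p. Slc22a28, of the family of Slc22a7, fell with -2.82 and -2.35. Between the BDL groups 0 of 22 relatives passed, and the lowest unadjusted p belonged to Abcc9 (log2 fold change 0.34) and Slc22a5 (0.27).

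Canalicular exporters pump bile acids, lipids and other compounds into bile. Of 10 genes, 3 rose (19.1% of all genes did) and 4 fell (16.6%) with miR-Ctrl, among them Abcb1a (1.23 log2), Slc47a1 (-1.31) and Abcg8 (-1.59). With anti-miR-873-5p 3 rose (13.1% of all genes) and 2 fell (8.44%), with Abcb1a at 1.13, Abcb1b at 1.00 and Slc47a1 at -0.79. Abcb11, the bile salt export pump, was at -0.53 (adjusted p = 0.146) and -0.72 (adjusted p = 0.133) in edgeR and did not pass. Between the BDL groups 0 of 10 passed, with Slc47a1 at 0.49 and Abcc2 at -0.46.

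Genes of bile acid synthesis that passed the test were lower. With miR-Ctrl 8 of 12 fell (16.6% of all genes) and 0 rose, led by the 12α-hydroxylase Cyp8b1 (-7.26 log2), Cyp7b1 (-2.92) and the bile acid ligase Slc27a5 (-1.44). With anti-miR-873-5p 5 of 12 fell (8.44% of all genes), among them Cyp7b1 (-2.65), Slc27a5 (-1.26) and the sterol 27-hydroxylase Cyp27a1 (-1.19). Between the BDL groups 0 of 12 passed, and the lowest unadjusted p belonged to Cyp8b1 (4.91 log2) and Cyp7a1 (1.73), the rate-limiting enzyme of the classic route.

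Among 16 regulators tested of 17, 8 fell and 3 rose with miR-Ctrl, beside 16.6% and 19.1% of all genes, and 3 fell and 1 rose with anti-miR-873-5p, beside 8.44% and 13.1%. The 3 rises with miR-Ctrl are near the share of all genes. Of the genes called, the largest changes with miR-Ctrl were those of Ppara (-1.86 log2), the fatty acid receptor, the sphingosine receptor S1pr2 (1.69) and the coreceptor Klb (-1.27). With anti-miR-873-5p they were those of S1pr2 (1.31), Klb (-0.92) and Cebpa (-0.76). Ppara was at -0.96 there and did not pass (adjusted p = 0.0576 in edgeR). Nr1h4, which encodes FXR, was at -0.97 (adjusted p = 0.00196) with miR-Ctrl and -0.46 (adjusted p = 0.115) with anti-miR-873-5p in edgeR. Between the BDL groups 0 of 16 passed, with Nr1i3 at 0.51 and Nr1h4 at 0.57.

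**Figure D5:**
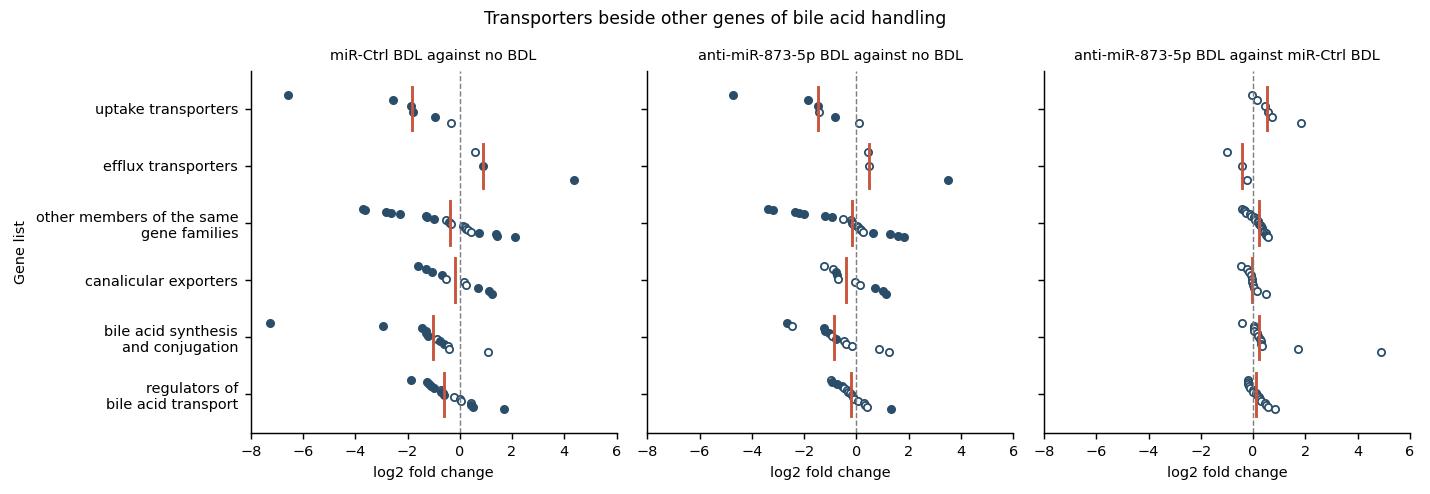
Log2 fold change of each tested gene of the transporters and of 4 related lists (1 point a gene, filled where the adjusted p is under 0.05, vertical bar at the list median) in the 3 comparisons. The uptake median is -1.84 with miR-Ctrl and -1.46 with anti-miR-873-5p against no BDL.

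Promoters were searched for motifs of nuclear receptors, the family to which FXR belongs. RefSeq promoter windows around transcription starts (GRCm38.p6) were at hand for 8 of the 10 transporters, in 12 windows. An inverted repeat of AGGTCA with 1 base between the repeats was found, with up to 2 mismatches allowed, in 1.14% of 32851 promoters. Among the transporters it was found for Slco1b2, with 1 mismatch and its first base at position -88 from the start. The window is printed on the plus strand, with the repeat in capitals.
Slco1b2 promoter, chr6:141629422-141629450: atttgtgtAGGACAGTGACCTgaagagat
The half-site AGGTCA, on either strand, occurred in the promoters of Slco1b2, Slco1a1, Slc51b, Slc10a1 and Slc51a and in 16.3% of all promoters. That of Slco1b2 is part of the repeat printed above. The shares count single windows, whereas some transporters had more than 1. Also searched were CCAAT, found for Slco1a4, Slco2b1 and Slc51a (37.4% of all promoters), and GGGCGG, found for Abcc4 (35.7%). The motifs were chosen after the data had been seen, and a match is no evidence of binding.

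The genes whose normalized counts followed a transporter most closely over the 13 mice were looked up among 12985 genes, by Pearson's r of log2 values. For Slc10a1 these were Acaa2, Ss18l2, Isoc2a, Acsm3 and Gabpa (r from 0.984 to 0.974). For Slc51b they were Specc1, Eppk1, Gnptab, Pik3ap1 and Nrg1 (0.960 to 0.955), and for Abcc4 they were Nin, Asb4, Il33, Vamp3 and Ptger2 (0.912 to 0.881). Such values mainly carry the difference between mice with and without BDL, and the libraries share their scaling.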

How the data were processed

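Liver RNA of 13 mice was sequenced with single reads of 50 nt from unstranded TruSeq libraries. The authors mapped reads to mm10 with TopHat and deposited whole-number counts per Entrez gene without normalization, in 3 tables, 1 per comparison. CASAVA 1.8.2, FastQC, Trim Galore and DESeq2 are also named in the submitters' processing notes. The counting program and its annotation are not given in the sources used here. Columns were assigned to mice by their labels, 0 columns were left out and 0 rows named no gene. Of the Entrez IDs, 99.8% matched a RefSeq name.

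The counts were tested with edgeR 4.0.16 in R 4.3.3 (filterByExpr, TMM scaling, quasi-likelihood test, Benjamini-Hochberg adjustment, adjusted p under 0.05, fitted on each whole table), with DESeq2 1.42.0 as an alternative. The version of limma beside edgeR was 3.58.1, and no separate limma test was run. DESeq2 was run on the genes that filterByExpr kept. A standard error is the size of the log2 fold change over the root of the F statistic, and intervals are 95%. The test was checked on simulated counts in which known genes changed by a log2 of 2. It recovered 90.5% of them with miR-Ctrl against no BDL, 86% with anti-miR-873-5p against no BDL and 92.5% between the BDL groups. In the same order, 2.69, 5.49 and 7.96% of its calls fell on unchanged genes. The joined table holds 22246 genes with identical counts in the tables, plus Slc10a1, whose inclusion was decided after seeing the data. Where the counts of 773 genes differed, those genes were otherwise left out of it. The mice carry separate labels, and no source states separate housing or litters, so p-values measure the spread between these mice. The transporters, the lists and the tests were chosen with earlier results of these data known. Named beside the transporters are the 3 called genes with the largest change in each list and comparison with no BDL, the 2 with the lowest p between the BDL groups, and the 5 genes most like Slc10a1, Slc51b and Abcc4. Abcb11, the Nr1h4 values against no BDL and the uptake over efflux ratio were chosen after their values were seen. Alternatives were other scalings, DESeq2, other filters, 1 fit of 3 groups, mouse number as a block, an adjusted p of 0.1, all mice, and leaving out each mouse.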

Additional observations from a re-analysis of the deposited data

Results flagged for a closer look

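Dixon's test at 95% was run on 27 groups of single transporters, where 0 were flagged, and on 72 groups of sums, ratios and shares, where 3 were, and chance flags about 1 in 20 groups. The summed uptake level of no BDL mouse 5 was 425.9 normalized counts per kilobase against 699.4 to 792.2 in the others. The summed efflux level of miR-Ctrl BDL mouse 1 was 321.6 normalized counts against 299.6 to 301.6. The summed level of other members of the same families in anti-miR-873-5p BDL mouse 1 was 910.4 normalized counts against 593.3 to 646.0.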

How the results depend on the processing

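The falls of Slc10a1 and Slco1a1 and the rise of Slc51b kept their direction and passed the threshold in both comparisons with no BDL under every alternative run. Scaling by library size alone gave 9635 genes past the threshold with miR-Ctrl and 10194 with anti-miR-873-5p against no BDL, with 3 transporters higher and 2 lower in the latter, and leaving the 20 genes with the most counts out of the library size gave 4723 genes and 2 transporters higher in the latter. Under library size alone the all-gene median was 0.79 (log2) and 0.82, and under the other scaling it was 0.34 in both, beside -0.011 and -0.0070. Without the omitted mice, 4317 genes passed with anti-miR-873-5p. Leaving out 1 mouse gave 1261 to 4317 genes there and 0 to 1 genes between the BDL groups, where DESeq2 called 30. With miR-Ctrl, leaving out 1 mouse gave 1 to 3 transporters higher. Abcc4 lost its call without miR-Ctrl mouse 2 or 4, and Abcc3 gained one without no BDL mouse 3 or 5.

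With mouse number as a block, 1 transporter was higher with miR-Ctrl (Abcc4 at 0.89, adjusted p = 0.0903 in edgeR), and no other call among the transporters changed. Deviations of same-numbered mice correlated from -0.198 to 0.074 with no BDL. Between the BDL groups they correlated at 0.349 (mouse 1) and -0.016 (mouse 4), the only numbers held by both groups there. These are too few to decide whether the numbers mark mice handled together.

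Slco1a4 changed sign, with no call, to 0.45 and 0.037 under these scalings with miR-Ctrl. With anti-miR-873-5p it went to -0.18 under the block and to -0.27 without the omitted mouse, and from -0.27 to 0.35 over single mice left out. Between the BDL groups it was 0.0021 by library size, 0.43 in 1 fit of 3 groups and 0.44 with all mice, and -0.16 to 0.068 over single mice left out, where Slco2b1 ran from -0.0090 to 0.22. The values of Slc10a1 in the joined fits rest on a choice made after seeing the data. The cause of these moves was not tested. Abcc4 and Slc51b rest on few reads in no BDL, which limits their precision.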
